A study of Mus musculus with 33 samples.

Results

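Skin resident memory CD8 T cells (TRM) collected after contact allergy had settled were compared between header codes 3_03 and 2_03 of the deposited count table, across all genes. The comparison was chosen by the position of 4 columns: the gene column is column 1, columns 12 and 13 carry code 3_03, and columns 10 and 11 carry code 2_03. It holds 4 libraries, 2 per code, of the 16 libraries of the second experiment and of 33 in the series. CEL-seq2, a method that barcodes and counts the 3' ends of polyadenylated transcripts, was applied in bulk to sorted cells.

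The mice were wild-type C57BL/6 animals sensitised to the hapten 2,4-dinitrofluorobenzene (DNFB), a chemical that provokes an allergic skin reaction carried by CD8 T cells. CD8+CD69+CD103+ TRM were sorted from their skin at day 11 or day 42 after DNFB challenge, after treatment with the vehicle acetone or with TA (0.01%), a topical glucocorticosteroid. The labels give 2 samples for each of these 4 conditions, and the table holds 4 codes with 2 libraries each, 2_03 to 5_03. The codes do not state which day or treatment they are. The difference between 3_03 and 2_03 may be of day, of treatment or of both, which cannot be told apart here, and no code was assigned to a condition from its values. The other libraries of the second experiment came from untreated skin at day 2. No header names the day 2 subsets. Code 1_03 is read as the CD69+CD103+ subset because it shares the ending _03 with codes 2_03 to 5_03. The other 6 libraries are then the subsets lacking CD69, CD103 or both. Nothing in the labels says that the 2 libraries of a code came from separate animals, so p-values reflect the spread between samples, which may be technical. The number of mice behind each sample is not stated in the labels.

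TRM are memory T cells that stay in a barrier tissue instead of recirculating through blood. CD69 opposes the receptor that leads cells out of tissue, and CD103 (encoded by Itgae) binds E-cadherin on epithelial cells. In the skin such cells hold ready-made messenger RNA for cytotoxic granule proteins and cytokines, and they can divide in place after meeting antigen. Glucocorticosteroids act through a nuclear receptor that switches on genes such as Tsc22d3, Fkbp5 and Per1 and holds back cytokine genes.

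Totals were 6242311 and 3329907 counts for 2_03 and 3960106 and 4050662 for 3_03, within the range of 2937814 to 7407069 over the 8 settled libraries. Mitochondrial transcripts took 14.1% and 18.3% of counts in 2_03 and 19.7% and 21.3% in 3_03. The correlation of log2 CPM (counts scaled to library size) was 0.868 between the 2_03 libraries and 0.855 between the 3_03 libraries, and 0.827 to 0.862 across these codes. Library 1 of 2_03 and library 2 of 3_03 (0.862) were thus more alike than the 3_03 pair. Library 1 of 2_03 also correlated more with both 4_03 libraries (0.872 and 0.882) and library 2 of 5_03 (0.892) than with its partner. With library 1 of 5_03 it correlated less (0.845). The sorted phenotype was present in all 4. Itgae stood at 289 and 284 CPM in 2_03 and at 216 and 192 CPM in 3_03. Cd69 stood at 540 and 411 CPM against 433 and 495 CPM, Cd8a at 628 and 767 against 795 and 669 CPM, and Cd8b1 at 514 and 653 against 570 and 463 CPM. None of these 4 passed the test. In day 2 code 1_03 Itgae stood at 70.7 and 88.7 CPM, below the 4 compared libraries. In the other 6 day 2 libraries Itgae had a median of 6.34 and a maximum of 92.5 CPM. Cd69 stood at 528 and 370 CPM in 1_03 and ran from 330 to 524 CPM in those 6. The reading of 1_03 as CD69+CD103+ rests on its ending, and these levels do not settle it. Cd4 was too low to be tested, and no rows for the constant regions of the T cell receptor were found under the symbols searched.

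Cells of code 3_03 carried more messenger RNA for granzyme A, for the granzyme-inhibiting serpins and for Ctla4. They carried less for interferon gamma, Il13, the chemokine genes Ccl3, Ccl4 and Cxcl10, and 5 of 43 genes of cell division. Of 12236 genes tested, 105 (0.858%) had an adjusted p under 0.05 (edgeR's quasi-likelihood F test, Benjamini-Hochberg over all genes) and are written below as called. In 3_03, 47 (0.384%) were higher and 58 (0.474%) lower, and 40 and 51 of these by over 2-fold. The median log2 fold change over all genes tested was 0. The test borrows its spread from all 16 libraries. With the 4 compared libraries alone the same edgeR test called 0 genes, with 867 at an unadjusted p under 0.05, against 1424 in the test on all 16. The count also fell to 47 without library 2 of 2_03 and to 42 without library 1 of 3_03, and 32 to 55 of the 105 were called again when any single library of these codes was left out. All 4 of these omissions kept the call of 15 genes, among them Serpinb9, Serpinb6b, Dusp2, Ptpn22, Ifng, Il13, Rrm2, Stmn1, Cxcl10 and H2-Ab1. None of the 4 kept it for 20 others, among them Ccl3, Ccl4, Klf13, Dcn, Mthfd2 and Cd207, while Gzma was called in 3 of 4 and Ctla4, Nr4a1, Cxcr4 and Glul in 1. Genes of other skin cells differed in the same libraries. The summed phagocyte list was 903 and 1090 CPM in 2_03 and 593 and 533 CPM in 3_03. Within it, class II genes with Cd74 fell from 757 and 952 to 229 and 244 CPM. The C1q genes of macrophages went the other way, at 0.305 and 2.21 against 54.9 and 75.6 CPM, without a call. Mast cell proteases were at 0 in 2_03 and present in 3_03. In bulk RNA, fewer cells of a type and less RNA per cell cannot be told apart, and the part of these other cells in the T cell gene results was not tested.

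**Figure D1:**
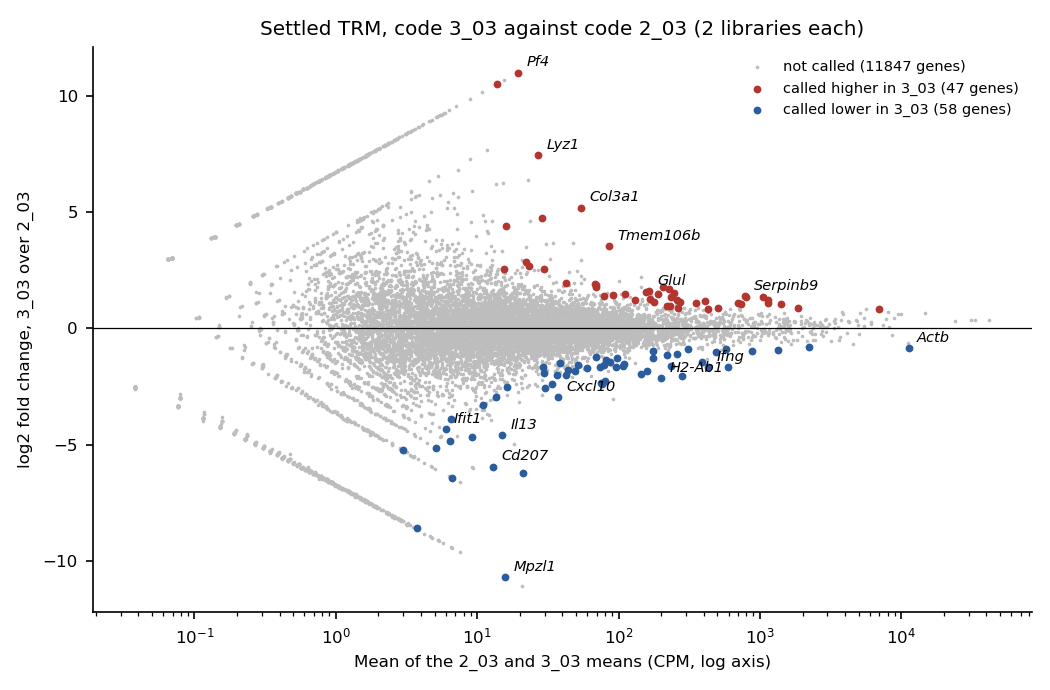
Log2 fold change of 3_03 over 2_03 (y axis) against the mean level over both codes (x axis, CPM, log axis), 1 point per gene with a count in these libraries. Red points are the 47 genes called higher and blue points the 58 called lower in 3_03, and the slanted lines of points at top and bottom are genes with no count in 1 code, whose fitted fold has no fixed size.

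Promoter sequence is shown for 4 genes that were lower in 3_03, as examples of the cell division and interferon-induced genes described below. The 4 do not stand for every called gene of these kinds. Windows are the 250 bases before the most upstream RefSeq start (build GRCm38.p6), 5′ to 3′ on the gene's strand. A window was matched for 9125 of the genes tested and for 85 of the 105 called. Rrm2 (chr12:24708004-24708253, plus strand) encodes a subunit of ribonucleotide reductase, which makes the building blocks of DNA, and Ube2c (chr2:164769679-164769928, plus strand) encodes a ubiquitin-conjugating enzyme of mitotic exit. Capitals mark the CCAAT box (CCAAT) and the cell cycle homology region (TTTGAA), both found in promoters of mitotic genes, on either strand. The E2F forms TTTCCCGC and TTTGGCGC were searched too and had no match in these windows.
Rrm2: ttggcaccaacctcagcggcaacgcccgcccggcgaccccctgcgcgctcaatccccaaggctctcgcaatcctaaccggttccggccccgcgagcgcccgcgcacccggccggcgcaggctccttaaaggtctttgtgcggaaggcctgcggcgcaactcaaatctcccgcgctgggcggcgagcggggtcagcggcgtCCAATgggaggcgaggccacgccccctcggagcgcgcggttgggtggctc
Ube2c: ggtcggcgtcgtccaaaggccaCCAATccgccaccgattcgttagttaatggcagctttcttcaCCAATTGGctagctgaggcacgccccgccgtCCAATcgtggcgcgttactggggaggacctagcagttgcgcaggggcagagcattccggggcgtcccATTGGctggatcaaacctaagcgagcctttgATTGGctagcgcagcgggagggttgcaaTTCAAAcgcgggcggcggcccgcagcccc
Cxcl10 (chr5:92348890-92349139, minus strand) encodes a chemokine induced by interferons, and Ifit1 (chr19:34640639-34640888, plus strand) an antiviral protein that binds foreign RNA. Capitals mark the core of the interferon-stimulated response element, GAAANNGAA, on either strand, found once in Cxcl10 and at 3 positions in Ifit1, of which 2 overlap. Psmb9, a called gene of the interferon response list, had no match to this element in its window.
Cxcl10: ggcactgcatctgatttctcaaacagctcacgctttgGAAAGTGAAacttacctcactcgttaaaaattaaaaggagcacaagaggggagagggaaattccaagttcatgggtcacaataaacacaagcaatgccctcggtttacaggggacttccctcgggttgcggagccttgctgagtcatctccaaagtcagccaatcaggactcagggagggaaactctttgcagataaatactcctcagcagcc
Ifit1: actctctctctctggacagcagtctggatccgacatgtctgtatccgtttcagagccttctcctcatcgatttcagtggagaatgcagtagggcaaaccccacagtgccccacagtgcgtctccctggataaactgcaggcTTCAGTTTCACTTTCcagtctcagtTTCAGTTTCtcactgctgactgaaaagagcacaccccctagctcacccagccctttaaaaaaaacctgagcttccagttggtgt
The CCAAT box was found in 26 of 33 matched promoters of the proliferation list (78.8%), in 36.6% of promoters of all genes tested and in 34.5% of all promoters in the table. Matches to TTTGAA were found in 27.3%, 10.6% and 16.3% of these. The interferon element lay in 15 of 29 promoters of the interferon response list (51.7%), against 6.27% of genes tested and 7.16% of the table. Among the 43 genes called lower with a window the shares were 39.5% for CCAAT and 14% for the interferon element, and among the 42 called higher 35.7% and 19%. TTTGAA lay in 11.6% of those called lower, 23.8% of those called higher and 27.6% of the interferon response list. The AP-1 site TGACTCA was found in 11.9% of the genes called higher, 6.98% of those called lower and 3.23% of genes tested. Only a part of the glucocorticoid response element, the letters AGAACA, was searched, and not the whole element. AGAACA lay in 21.4% of promoters of genes called higher, 6.98% of those called lower, 10.7% of genes tested and 10.7% of the glucocorticoid target list. The table as a whole held it in 16.1% and the AP-1 site in 4.43%. No window of these sets was tested against another. These are matches of letters and not measured binding sites, and the lists are made of known cell cycle and interferon genes.

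Among cytotoxic and effector genes, 3 rose and 4 fell in 3_03, of 23 tested. Over all genes tested 0.384% were called higher and 0.474% lower. The list's median log2 fold change was -0.28, against 0 over all genes. Gzma (ENSMUSG00000023132.8; chromosome 13, 113093825 to 113100981, minus strand), which encodes the granule protease granzyme A, measured 476 and 410 CPM in 2_03 and 978 and 934 CPM in 3_03. Both 3_03 libraries lay above both of 2_03 (log2 1.11 ± 0.18 SE, adjusted p = 0.00796). Serpinb9 encodes an inhibitor that shields killer cells from their own granzyme B. It stood at 464 and 413 CPM in 2_03 and at 1207 and 1071 CPM in 3_03 (log2 1.38 ± 0.18, adjusted p = 0.00226). Its relative Serpinb6b rose from 464 and 441 CPM to 1100 and 1201 CPM (log2 1.35 ± 0.21, adjusted p = 0.00532). These genes reached their highest levels among the 10 CD69+CD103+ libraries in the 3_03 pair. In codes 4_03 and 5_03 Gzma ran from 41.7 to 121 CPM, and in day 2 CD69+CD103+ cells it stood at 170 and 147 CPM. Gzmb, the most abundant granzyme transcript, did not pass the test, at 10950 and 7745 CPM in 2_03 and 8039 and 7378 CPM in 3_03. Srgn, which encodes the granule proteoglycan serglycin, stood at 8164 and 7699 CPM and at 12960 and 11170 CPM, with an adjusted p of 0.053.

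The 4 effector genes that fell encode a cytokine, 2 chemokines and a granzyme. Ifng, which encodes interferon gamma, fell from 813 and 489 CPM in 2_03 to 200 and 213 CPM in 3_03 (log2 -1.66 ± 0.25, adjusted p = 0.00377). The 3_03 libraries were the lowest of all CD69+CD103+ libraries for this gene, since codes 4_03 and 5_03 ran from 847 to 1575 CPM and day 2 cells stood at 353 and 381 CPM. Ccl3 and Ccl4 encode chemokines that attract T cells and phagocytes. Ccl4 stood at 1264 and 1058 CPM against 639 and 556 CPM (log2 -0.96 ± 0.21, adjusted p = 0.0389), and Ccl3 at 365 and 343 against 152 and 180 CPM (log2 -1.10 ± 0.25). Gzmc, a granzyme gene of strongly stimulated killer cells, stood at 179 and 111 against 49.4 and 43.0 CPM (log2 -1.65 ± 0.31). Granzymes thus differed in direction, with Gzma higher and Gzmc lower in the same libraries.

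The type 2 cytokine gene Il13 fell in 3_03. It stood at 35.1 and 22.7 CPM in 2_03 and at 0.555 and 1.83 CPM in 3_03 (log2 -4.57 ± 0.63, adjusted p = 0.00262). Codes 4_03 and 5_03 held 23.9 to 45.0 CPM and day 2 cells 97.6 and 109 CPM, so the 3_03 pair stood apart from the other 8 libraries. Of 13 genes of the type 17 and type 2 list no other was called. Gata3, the transcription factor of type 2 cytokine genes, was at 131 and 147 CPM against 77.4 and 116 CPM, and Areg, the growth factor amphiregulin, at 204 and 157 against 118 and 128 CPM.

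Genes that respond to T cell receptor signals had a call in each direction. Of 40 tested, Dusp2 rose and Nr4a1 fell, where 0.858% of all genes tested were called in either direction. The median log2 fold change of the list was -0.27. Dusp2 encodes a nuclear phosphatase that switches off MAP kinases. It rose from 546 and 642 CPM to 1297 and 1720 CPM (log2 1.34 ± 0.20, adjusted p = 0.0036). Nr4a1, the early response gene that encodes Nur77, stood at 834 and 661 against 377 and 442 CPM (log2 -0.87 ± 0.18, adjusted p = 0.0286). Ptpn22, a phosphatase gene that restrains receptor signalling, rose from 878 and 963 to 1888 and 1922 CPM (log2 1.05 ± 0.15, adjusted p = 0.0032). It belongs to no list and is named because it was called under 10 of 11 alternative settings, a choice made after its values were seen.

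Of 22 inhibitory receptor genes, Ctla4 alone was called, where 0.858% of all genes tested were. This receptor competes with CD28 for their shared ligands and is also on the list of CD4 and regulatory T cell genes. Ctla4 rose from 173 and 90.5 CPM in 2_03 to 362 and 312 CPM in 3_03 (log2 1.35 ± 0.29, adjusted p = 0.0338). Codes 4_03 and 5_03 lay between 36.8 and 77.3 CPM and day 2 cells at 553 and 685 CPM, so both codes lay between the other settled libraries and day 2. Havcr2 (TIM-3) was at 300 and 263 against 383 and 387 CPM and Pdcd1 (PD-1) at 274 and 115 against 271 and 325 CPM, without passing the test. Among 31 cytokine receptor genes Ifngr1, a chain of the interferon gamma receptor, rose from 229 and 268 to 601 and 526.4 CPM (log2 1.18 ± 0.21, adjusted p = 0.0113).

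**Figure D2:**
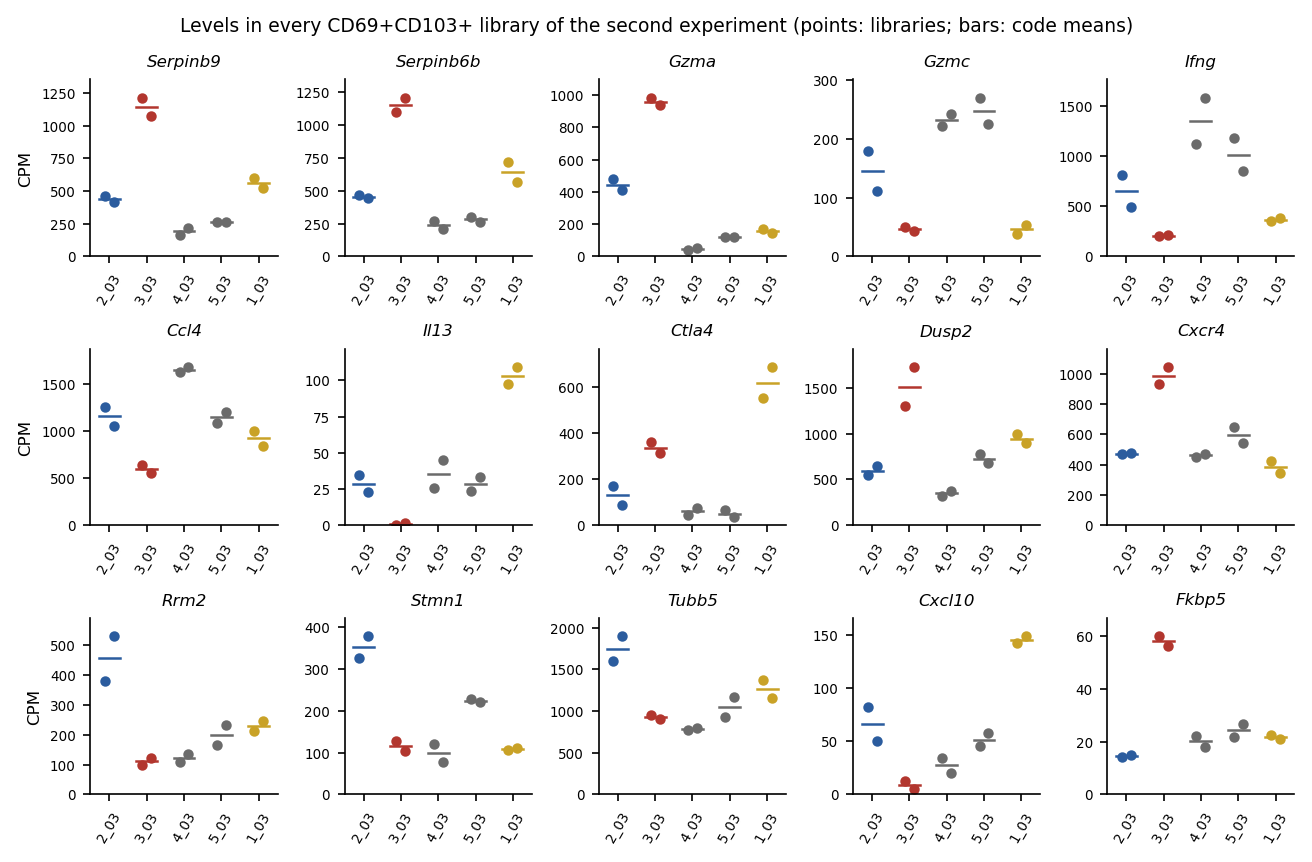
Levels (CPM, y axis from 0) of 15 genes in the 10 CD69+CD103+ libraries by code (x axis), 1 point per library and a bar at the mean of the pair. The 3_03 libraries hold the highest Gzma, Serpinb9 and Serpinb6b and the lowest Ifng and Il13, and the 2_03 libraries the highest Rrm2, Stmn1 and Tubb5.

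Of 43 genes of cell division tested, 5 fell in 3_03 relative to 2_03 (Stmn1, Tubb5, Ccna2, Rrm2 and Ube2c) and none rose. Over all genes tested 0.474% were called lower. Negative fold changes were measured for 41 of 43, with a median log2 fold change of -1.24, while 47.9% of all genes tested were positive. In 35 of 43 both 3_03 libraries lay below both 2_03 libraries, where the same held for 19% of all genes tested, and in none of them above, where it held for 17.7%. Rrm2 measured 381 and 529 CPM in 2_03 and 97.1 and 123 CPM in 3_03 (log2 -2.04 ± 0.29, adjusted p = 0.00262). Stmn1 encodes stathmin, which destabilises microtubules. It measured 326 and 378 CPM against 128 and 103 CPM (log2 -1.61 ± 0.26, adjusted p = 0.00573). Ube2c, whose promoter is printed above with 6 CCAAT matches, stood at 114 and 139 CPM against 16.4 and 32.9 CPM (log2 -2.36 ± 0.46). The mitotic cyclin gene Ccna2 was at 42.1 and 71.9 against 4.72 and 17.0 CPM, and the beta tubulin gene Tubb5 at 1596 and 1895 against 950 and 905 CPM. The widely used division marker Mki67 was at 138 and 175 against 88.5 and 44.3 CPM and did not pass (adjusted p = 0.173).

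Other called genes of this kind lay outside the list. Mad2l1, a spindle checkpoint gene, fell from 129 and 128 CPM to 29.1 and 20.3 CPM (log2 -2.38 ± 0.41, adjusted p = 0.0109). Hmgn2, a nucleosome-binding protein gene, fell from 488 and 653 to 230 and 196 CPM. The 1-carbon enzyme genes Mthfd2 and Shmt2, which feed nucleotide synthesis, were also called lower, by log2 -2.02 ± 0.43 and -1.66 ± 0.37. Hmgn2, Mthfd2 and Shmt2 are named after their values were seen. In the other settled codes Rrm2 ran from 110 to 233 CPM, so the 2_03 pair was the higher extreme and the 3_03 pair lay at the low end.

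Interferon response genes had 3 calls among 42 tested, all lower, Psmb9 and Ifit1 among them, where 0.474% of all genes tested were called lower. The list's median log2 fold change was -0.37. Psmb9, an immunoproteasome subunit gene, was at 37.6 and 56.8 CPM in 2_03 and 12.76 and 11.99 CPM in 3_03 (log2 -1.93 ± 0.40, adjusted p = 0.0286). In the annotation Psmb9 overlaps Tap1 on the opposite strand, as Cxcl10 overlaps Art3, Ube2c overlaps Tnnc2 and Ccna2 overlaps Exosc9. Their reads could be shared, since the use of strand in counting is not stated in the sources at hand. Ifit1 was at 5.49 and 17.3 against 0.555 and 0.521 CPM (log2 -4.32 ± 0.90). Cxcl10, which is not on the list and carries the element once in the promoter printed above, fell from 81.7 and 50.5 CPM to 12.2 and 4.95 CPM (log2 -2.95 ± 0.45, adjusted p = 0.00377). Abundant members of the list that were not called differed in direction. Ifitm1 stood at 1845 and 2183 against 1450 and 1370 CPM, Ly6a at 410 and 439 against 704 and 693 CPM and Ly6e at 864 and 1490 against 1504 and 1575 CPM. The list includes 7 tested genes with no count in these 4 libraries, which enter the median at 0.

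Genes that glucocorticosteroids induce in many tissues had 3 calls among 34 tested, all higher in 3_03 (median log2 fold change 0.48). Over all genes tested 0.384% were called higher. The 2 libraries of 3_03 lay above those of 2_03 for 19 of 34 and below for 4, where the shares over all genes tested were 17.7% and 19%. Inhibitory receptor genes and mitochondrial transcripts leaned the same way, with medians of 0.45 and 0.44. Glul, which encodes glutamine synthetase, rose from 58.7 and 103 CPM to 241 and 252 CPM (log2 1.62 ± 0.32, adjusted p = 0.024). Cxcr4, the receptor of the chemokine CXCL12, rose from 468 and 480 to 934 and 1042 CPM (log2 1.06 ± 0.19, adjusted p = 0.0121). Klf13 encodes a zinc finger factor of T cells. It was at 142 and 174 against 295 and 317 CPM (log2 0.95 ± 0.20). The best-known targets did not pass. Fkbp5, a co-chaperone of the receptor, was at 14.3 and 14.8 CPM against 59.9 and 56.3 CPM (log2 2.00 ± 0.48, adjusted p = 0.0557, and between 0.0025 and 0.267 over 11 alternatives), and Klf9 was at 44.5 and 34.4 against 191 and 130 CPM (adjusted p = 0.05001). Tsc22d3 (GILZ) was at 331 and 150 against 289 and 221 CPM (log2 0.08 ± 0.40), and Per1 at 55.2 and 31.5 against 52.7 and 44.3 CPM (log2 0.16 ± 0.36). Summed over the list, 2_03 held 9354 and 9732 CPM and 3_03 held 12140 and 12670 CPM. The 4 libraries of 4_03 and 5_03 ran higher, from 13220 to 14170 CPM. Members were placed differently against those libraries. Fkbp5, at 18.2 to 26.8 CPM there, was higher in 3_03, and Per1, at 88.4 to 104 CPM there, was lower in both codes. The list thus holds genes with large differences beside others whose libraries overlap, and which code received TA is not known here.

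Residency and recirculation genes had no call, of 26 and 24 tested, with median log2 fold changes of 0.06 and 0.16. Rgs1 was at 1475 and 1195 against 1318 and 1350 CPM, Rgs2 at 1709 and 1593 against 1358 and 1219 CPM, and Cxcr6, the chemokine receptor of skin TRM, at 734 and 617 against 413 and 415 CPM (adjusted p = 0.113). Of the recirculation list Il7r, the interleukin 7 receptor, was at 235 and 228 against 430 and 387 CPM (adjusted p = 0.0612). The chromatin organiser gene Satb1 had an adjusted p of 0.051. In the chemokine receptor and adhesion list Cxcr4 rose and Icam1 fell, the latter from 298 and 196 to 80.7 and 127 CPM.

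Housekeeping lists had few calls. All 15 transcripts of the mitochondrial genome had positive fold changes (median log2 fold change 0.44) and none was called. Of 78 ribosomal protein genes, 69 were positive (median 0.21) with none called. Over all genes tested 47.9% were positive. Of 73 nuclear genes of oxidative phosphorylation Ndufb8 was called, lower, which is 1.37% against 0.858% of all genes tested. Glycolysis, heat shock, lipid handling, CD8 transcription factor and survival lists had no call, and class I antigen processing had Psmb9 alone. Among abundant genes the cytoskeletal gene Actb fell from 12620 and 16380 CPM to 8169 and 7866 CPM (log2 -0.85 ± 0.17).

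**Figure D3:**
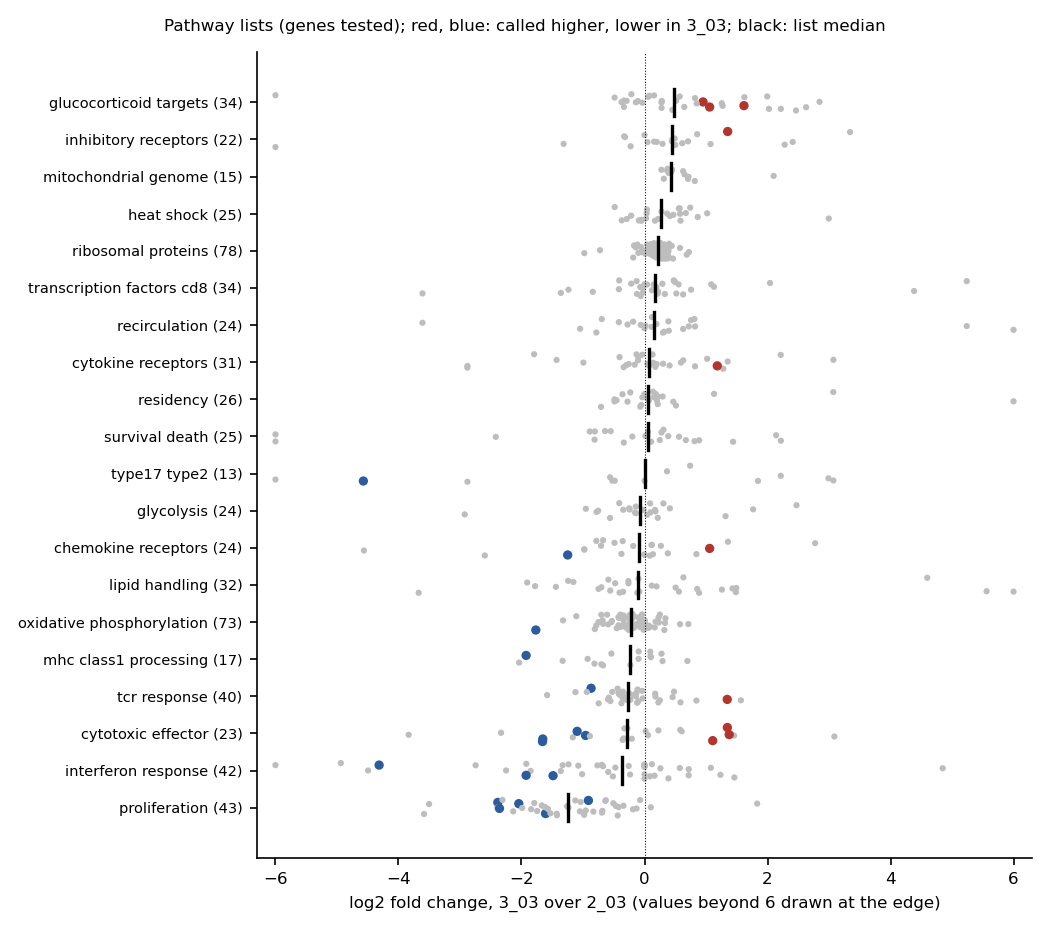
Log2 fold change of 3_03 over 2_03 (x axis) for every tested gene of 20 pathway lists, ordered by list median (black bars). Red and blue points are genes called higher and lower, grey points are not called, and the proliferation list has the lowest median (-1.24) and the glucocorticoid target list the highest (0.48).

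Several called genes belong to other cells of the skin. The list of mononuclear phagocytes, which take up and present antigen, had 5 calls lower and 1 higher of 24. Over all genes tested 0.474% were called lower and 0.384% higher. H2-Ab1, H2-Aa, H2-Eb1 and Cd74, which build the class II antigen-presenting complex, summed to 757 and 952 CPM in 2_03 and to 229 and 244 CPM in 3_03. H2-Ab1 alone fell from 254 and 401 to 66.9 and 81.6 CPM (log2 -2.14 ± 0.32, adjusted p = 0.0036). Cd207 encodes langerin, the defining lectin of epidermal Langerhans cells. It was at 26.4 and 24.9 CPM against 0.277 and 0.521 CPM, or 252 counts against 3, a ratio of 64.2 (95% counting interval 21.7 to 313.5).

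Lyz1 and Pf4, which macrophages express, were called higher instead. Lyz1, a lysozyme gene, stood at 0.457 and 0 CPM in 2_03 and at 73.5 and 34.2 CPM in 3_03, or 3 counts against 396, a ratio of 173 (58.7 to 841). The 3 C1q genes, complement genes of tissue macrophages, summed to 0.305 and 2.21 CPM in 2_03 and 54.9 and 75.6 CPM in 3_03, none of them called (C1qb adjusted p = 0.051). Pf4, a chemokine gene of platelets and some macrophages, had 0 counts in 2_03 and 284 in 3_03, at least 124-fold higher when 3 counts are allowed over the 2_03 pair. Its 3_03 libraries were at 57.7 and 19.8 CPM. The summed level of the whole phagocyte list was 903 and 1090 CPM in 2_03 and 593 and 533 CPM in 3_03, so it was lower in 3_03 although 15 of 24 members had positive fold changes. Most of that level in 2_03 came from class II genes and Cd74, and the other members together were higher in 3_03.

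Matrix and mast cell genes were also unevenly spread. The collagen gene Col3a1 was at 4.73 and 0.315 CPM against 33.3 and 178 CPM and the proteoglycan gene Dcn at 8.08 and 9.14 against 51.1 and 49.5 CPM, both called higher, while the matrix gene Postn was called lower (17.5 and 17.7 against 1.11 and 0.261 CPM). Without Thy1, which T cells express, the fibroblast list summed to 417 and 490 CPM in 2_03 and to 724 and 1050 CPM in 3_03. The mast cell proteases Cpa3, Mcpt4 and Tpsb2 summed to 0 CPM in both 2_03 libraries and to 43 and 24.8 CPM in 3_03. They were at 0 in every other CD69+CD103+ library of the experiment, and none passed the test (adjusted p = 0.249 for Cpa3). Keratinocyte genes summed to 5645 and 5745 CPM in 2_03 and 6327 and 5338 CPM in 3_03, with Krt6a, Dmkn and Defb6 called higher and Krt2 lower among 33 tested. Of 17 CD8 T cell identity genes none was called (median -0.20). No call was made either in the lists of gamma-delta T cells (6 genes tested), NK and innate lymphoid cells (10) and neutrophils (7). The same held for B cells (1), mast cells (6) and the list of endothelium, erythroid cells and melanocytes (10). With so few genes tested, the lack of a call does not show equal levels, and the mast cell list had a median log2 fold change of 5.29.

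**Figure D4:**
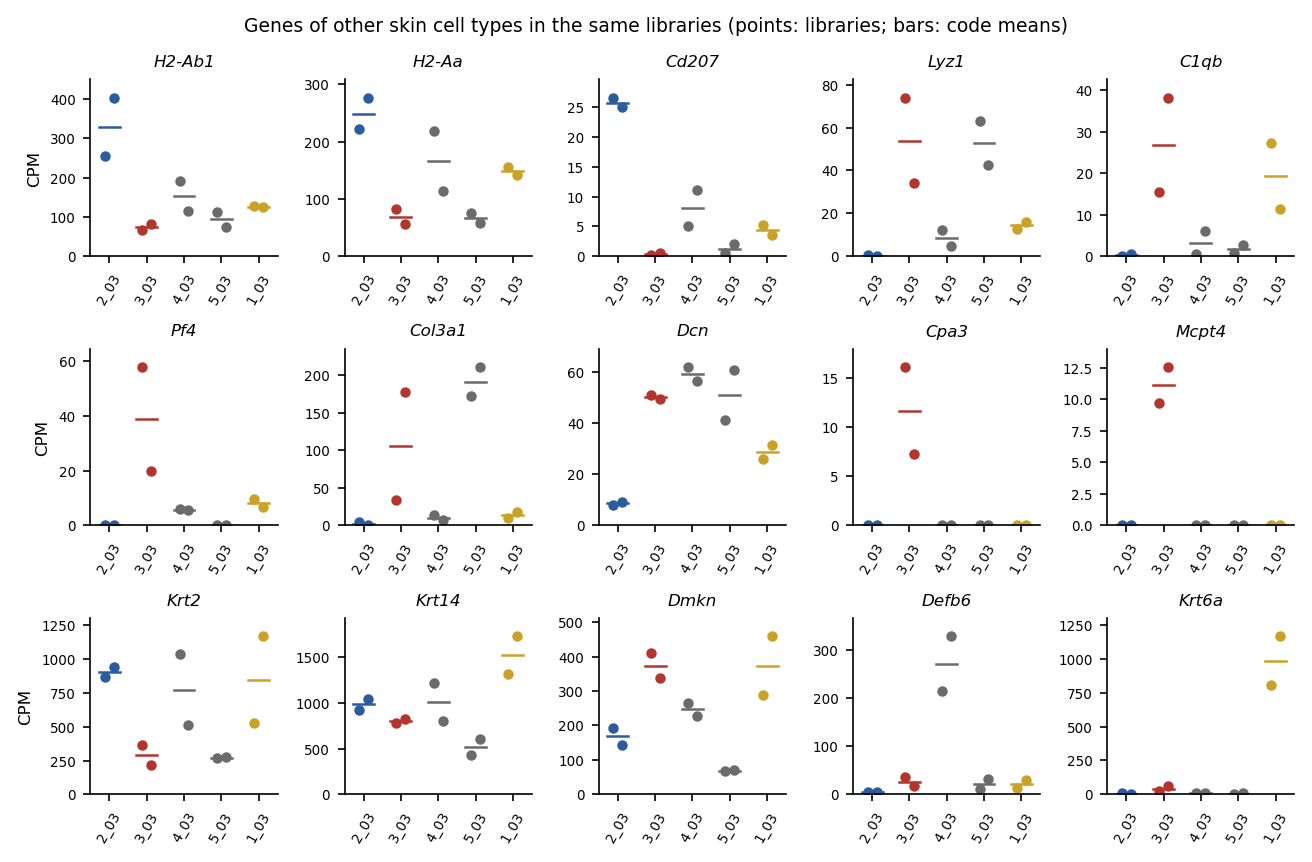
Levels (CPM, y axis from 0) of 15 genes of other skin cell types in the 10 CD69+CD103+ libraries by code, 1 point per library and a bar at the mean of the pair. H2-Ab1, H2-Aa and Cd207 are highest in the 2_03 pair, and Cpa3 and Mcpt4 appear in the 3_03 pair and not in the other 8 libraries.

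The largest fold changes came from a mixed set of genes. Tmem106b, a lysosomal membrane protein gene, was at 13.9 and 13.2 CPM in 2_03 and at 139 and 179 CPM in 3_03 (log2 3.55 ± 0.44, adjusted p = 0.00226). It ran from 19.6 to 27.0 CPM in 4_03 and 5_03 and stood at 27.7 and 28.2 CPM at day 2, so the 3_03 pair was alone in its high level. Also called higher were the vasodilator peptide gene Adm (2.896 and 0.946 against 41.6 and 69.9 CPM), Gramd4, Tsc22d2, Synj1, Ccdc71l and Arap2, with log2 fold changes from 1.78 for Arap2 to 4.77 for Adm. The cornified envelope gene Sprr2h had 0 counts in 2_03 and 200 in 3_03, at least 87.2-fold higher with each pair pooled. Its 3_03 libraries differed, at 46.9 and 8.08 CPM. The desmosome gene Cdsn rose by log2 4.40 ± 0.85. Mpzl1, a receptor glycoprotein gene, had 224 counts in 2_03 and 0 in 3_03, at least 57.1-fold lower, but its 2_03 libraries differed, at 7.16 and 55.8 CPM. Ipp was as uneven, at 5.49 and 77.6 CPM in 2_03 against 0.277 and 0.782 CPM. Tmem201, Gna14, Clca2, Fcgbp, Nelfe and Gpaa1 were called lower as well, with log2 fold changes from -2.53 for Gpaa1 to -6.42 for Tmem201. Tmem201 had 1 count in 3_03 (ratio 87.9, counting interval 15.5 to 3502) and Gna14 had 3 (ratio 25.2, 8.38 to 124).

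Codes 4_03 and 5_03 give a frame for which of the 2 codes stood apart. Of the 47 genes called higher, 22 had both 3_03 libraries above the 4 libraries of 4_03 and 5_03 with 2_03 overlapping their range. In 11 the 2_03 pair lay below with 3_03 overlapping, in 6 both held, and in 5 both codes lay above. Of the 58 called lower, 25 had 3_03 below with 2_03 overlapping, 16 had 2_03 above with 3_03 overlapping, and 13 had both. Il13 and Cxcl10 were below that range in 3_03 and overlapped it in 2_03. Rrm2, Stmn1, Tubb5, Ccna2, Ube2c and Mad2l1 were above it in 2_03 and reached into it in 3_03, and Ifng was below it in both codes. In tests against the mean of 4_03 and 5_03, which share libraries with the main comparison, 219 genes (1.79%) were called for 3_03 and 116 (0.948%) for 2_03. The log2 difference from that mean was -2.50 ± 0.24 for Ifng in 3_03 and -0.84 ± 0.22 in 2_03. For Rrm2 it was -0.50 ± 0.24 in 3_03 (adjusted p = 0.363) and 1.54 ± 0.23 in 2_03 (adjusted p = 0.00182). Gzma was above that mean in both, by 3.66 ± 0.16 in 3_03 and 2.55 ± 0.15 in 2_03.

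A further test asked where the difference between 3_03 and 2_03 departed from that between 5_03 and 4_03. It called 49 genes (0.4%), 26 higher and 23 lower, of which 23 were also called in the main comparison. Pairing the codes this way follows their numbers only, and nothing says that both pairs hold the same contrast. The proliferation list had 7 calls, all lower, with a median difference of log2 -2.36. Rrm2 was 110 and 136 CPM in 4_03 and 164 and 233 CPM in 5_03, so it was higher in the higher-numbered code there and lower in it here (difference log2 -2.74, adjusted p = 0.00301).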

How the data were processed

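Counts per gene were read from the table the authors deposited for the second experiment (16 libraries). The build was GRCm38 and the tools bcl2fastq 2.2, BWA 0.7.15 and HTSeq, per the submitters' processing notes. Collapsing of reads by molecular barcode and the use of strand are not given in the sources used here. Columns were matched to codes by header. The 2 columns of a code are numbered in table order, as names only.

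Of 18052 gene rows, 16856 were placed on GENCODE vM21 (GRCm38) by symbol and chromosome. Control transcript rows (7 rows, 0 to 3 counts per library) were left out. The filterByExpr function of edgeR 4.0.16 (R 4.3.3), with the code as group, left 12236 genes, libraries were scaled by TMM, and 1 mean per code fitted to all 16 libraries. Contrasts were tested by the robust quasi-likelihood F test, adjusted by Benjamini-Hochberg over all genes, with a threshold of 0.05. The SE is the log2 fold change over the square root of F. CPM use the TMM sizes. The script was tested on simulated data. Alternatives were other size factors, no filter, a 10 CPM filter, DESeq2 1.42.0, fewer libraries, no mitochondrial transcripts, and each library left out.

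The comparison, the 31 gene lists (20 pathway, 11 marker) and the rule for naming genes were chosen with earlier results of these data known. The rule names Itgae, Cd69, Cd8a, Cd8b1, Tsc22d3, Fkbp5 and Per1, the 15 called genes of largest fold change per direction at 10 CPM or more, up to 4 called members of each list by smallest p, up to 2 most abundant members of lists with no call, and the 5 genes of smallest p for the difference between pairs of codes. Predicted genes, pseudogenes, receptor segments, histone and mitochondrial genes are left out of the largest changes. Other genes named were chosen after their values were seen. A called gene that the rule names is not reported here. Counting intervals are exact binomial at 95% and, like the limit of 3 counts for a count of 0, cover counting error only. Promoters are from RefSeq (GRCm38.p6).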

Additional observations from a re-analysis of the deposited data

Results flagged for a closer look

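For 17 genes named above or by the same rule, the difference between 3_03 and 2_03 departed from that between 5_03 and 4_03 in edgeR's test of the difference itself. The codes are paired by number, and both pairs are not known to hold the same contrast. On the log2 scale the departure was negative for the division genes Stmn1 (-2.79), Rrm2 (-2.74), Mad2l1 (-3.51), Tubb5 (-1.33) and Ube2c (-3.22), for the nucleosome-binding protein gene Hmgn2 (-1.91) and for the 1-carbon enzyme gene Shmt2 (-2.98), which were lower in the higher-numbered code here and not there. It was also negative for the cytokine gene Il13 (-4.28) and the chemokine gene Cxcl10 (-3.88). It was positive for Tmem106b (3.77) and the interferon gamma receptor gene Ifngr1 (1.40). The remaining genes are of keratinocytes or macrophages: Defb6 (6.202), Dmkn (2.995), Cdsn (7.93), Krt6a (3.62) and Pf4 (16.75), whose value rests on libraries with 0 counts and is no bound. Gm94, a predicted gene that was not called between 3_03 and 2_03, departed by 4.48. In Defb6, Dmkn and Cdsn the levels in 4_03 were above those in 5_03, and the summed keratinocyte list ran from 8688 and 6611 CPM in 4_03 to 2654 and 3090 CPM in 5_03. Its part in these departures was not tested.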

How the results depend on the processing

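None of the 105 called genes changed direction under any of the 11 settings. Of the genes named above without a call, Cd69, Cd8a, Cd8b1, Rgs1, Per1 and Tsc22d3 changed sign under at least 1 of them, so no direction is read for these. Without a low-count filter edgeR called 366 genes between 3_03 and 2_03, 283 for the difference between pairs of codes, and 345 and 610 for 2_03 and 3_03 against the mean of the other settled codes. DESeq2's Wald test called 409, 263, 426 and 575. It moved the split of the last 2 comparisons to 212 higher and 214 lower for 2_03 (82 and 34 in edgeR) and 267 and 308 for 3_03 (132 and 87). With the 8 settled libraries only, 40, 20 and 63 genes were called in the first 3 comparisons, 36 of the 40 among the 105. With the 4 compared libraries only, edgeR called 0 (867 at an unadjusted p under 0.05). Leaving out 1 library at a time gave 42 to 99 genes between 3_03 and 2_03, 34 to 78 for the difference between pairs, 31 to 123 for 2_03 and 122 to 215 for 3_03. The lowest of these came without library 1 of 3_03, library 1 of 5_03, library 2 of 2_03 and library 1 of 3_03. A lone library was then assumed to vary like the other codes. Of the 105 called genes, 14 were called under 10 of 11 settings, all but the 4-library fit: Lyz1, Tmem106b, Serpinb9, Serpinb6b, Dusp2, Serinc3, Ptpn22, Hmgn2, Stmn1, Ifng, Rrm2, H2-Ab1, Cxcl10 and Il13. The median log2 fold change over all genes stayed between -0.04 and 0.01. The cause of these differences was not tested. No paired analysis was possible because the columns carry no sample letter, although the labels letter the samples A and B in each condition.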
